A study of Mus musculus with 24 samples.

Results

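The comparison set RNA of Fgf20-/- mouse embryos (mut) against RNA of Fgf20+/- embryos (het) in whole ventral otocyst, the region of the embryonic ear from which the cochlea grows. Its members were chosen by label: the 8 libraries named pre-TRAP, 4 mut (libraries 18, 20, 22 and 24) and 4 het (libraries 17, 19, 21 and 23), of 24 libraries in all. The other 16 libraries, labelled TRAP, held RNA bound to tagged ribosomes and were used only where the pre-TRAP values are set beside them. TRAP stands for translating ribosome affinity purification: ribosomes with an eGFP-tagged L10a subunit, here made in cells of the Fgf20-Cre lineage, are captured with the RNA they are translating.

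Both groups were collected at embryonic day 14.5 from embryos of the labelled strain C57BL/6J x 129X1/SvJ, and both carried at least 1 null allele of Fgf20, so no embryo in the comparison was wild type. For every library, tissue of 3 to 7 embryos with the same genotype had been pooled. Libraries 18, 24, 17 and 23 came from experiment 2 and libraries 20, 22, 19 and 21 from experiment 1, so each experiment held 2 mut and 2 het libraries. Pre-TRAP is taken to mean whole-tissue RNA not captured on ribosomes, but the extraction text in the labels is the same for both kinds of library. They do not say whether pre-TRAP and TRAP libraries came from the same pools. P-values measure the spread between these pools.

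FGF20 is a secreted ligand that activates FGF receptor 1 in the sensory region of the cochlea, and the receptor signals through the kinase ERK. ERK switches on ETS transcription factors and feedback inhibitors of the Sprouty, Spred and Dusp families. The prosensory domain, marked by Sox2, gives rise to hair cells and supporting cells. Epithelium of the cochlea secretes the tectorins and otogelins of the tectorial membrane, the gel that lies over the hair cells. The comparison asked which of these RNAs differ in whole tissue when both copies of Fgf20 are lost.

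Total counts per library ran from 3.22e+07 to 5.34e+07 in mut and from 3.25e+07 to 5.06e+07 in het. None of the 12 within-genotype pairs of libraries agreed within sampling noise (chi-square divided by its degrees of freedom, 25.7 to 219). All defining markers of the tissue lists, from Epcam and Sox2 (otic epithelium) to Tbx18 (periotic mesenchyme), Col2a1 (cartilage), Tubb3 (neurons) and Hba-a1 (blood), were detected in 8 of 8 libraries. The first 2 principal components held 55.2% and 24.8% of the variance. On the first, libraries of experiment 2 lay at -49.9 to -17.5 and those of experiment 1 at -3.67 to 51.1. On the second, het libraries 17 and 19 lay highest, at 23.3 and 40.1, against -28.8 to 5.09 for the other 6 libraries. Libraries 23 and 24 lay lowest there, at -25.7 and -28.8. By the chi-square measure, het library 21 differed most from the other het libraries, at 120 to 219. Among het pairs, libraries 17 and 19 differed least, at 57.8. The pools also differed in sex: Xist, transcribed from the inactive X chromosome of females, was at 0 CPM in mut library 24 and het library 19, and 4 Y-linked genes summed to 1.94 and 0.351 CPM in het libraries 17 and 21, against 27.3 to 85.3 CPM in the other 6. CPM is a gene's count scaled to a fixed library size after TMM normalisation, which corrects for differences in library composition. In bulk RNA, fewer cells of a type and less RNA per cell cannot be told apart.

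Fgf20 (ENSMUSG00000031603), the targeted gene, was scarce in whole tissue. It stood at 0.136, 0.283, 0.232 and 0.276 CPM in mut libraries 18, 20, 22 and 24, which is 5 to 14 counts, against 0.805, 0.611, 0.374 and 1.69 CPM, or 16 to 61 counts, in het libraries 17, 19, 21 and 23. Every mut library lay below every het library, and het library 23 held more than any other. Mut over het, the log2 fold change came to -1.75 ± 0.45 (SE) and did not pass over all genes tested by edgeR's quasi-likelihood test (Benjamini-Hochberg adjusted p = 0.837). It was -0.89 in experiment 1 and -2.57 in experiment 2. Counts per gene do not tell which part of the locus the remaining mut reads came from.

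Of 21954 genes tested, 1 was lower and none was higher in mut at an adjusted p under 0.05, which is 0.00455% of the genes. The lower one was Tectb (ENSMUSG00000024979), which encodes beta-tectorin, a structural protein of the tectorial membrane. Tectb stood at 7.80, 11.1, 12.0 and 8.57 CPM in mut libraries 18, 20, 22 and 24, against 30.2, 43.1, 50.5 and 25.9 CPM in het libraries 17, 19, 21 and 23. The highest mut library held less than the lowest het library, and the het libraries of experiment 1 held more than those of experiment 2. The means were 9.86 ± 1.99 CPM in mut and 37.5 ± 11.4 CPM in het (SD, n = 4 each), a level 3.80-fold lower in mut. The log2 fold change was -1.90 ± 0.15 (SE, edgeR adjusted p = 0.00032), with -2.0 in experiment 1 and -1.76 in experiment 2. Tectb passed in 18 of 20 alternative fits, and in each of the 8 fits that left out 1 library (adjusted p = 0.000224 to 0.0126). It did not pass with no experiment term (adjusted p = 0.203) or in experiment 2 alone (adjusted p = 0.542).

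Tecta (ENSMUSG00000037705), which encodes alpha-tectorin, the partner of beta-tectorin in the same matrix, lay lower in every mut library as well but did not pass. It stood at 22.3, 23.5, 20.4 and 18.2 CPM in mut libraries 18, 20, 22 and 24, against 33.9, 40.6, 37.5 and 26.7 CPM in het libraries 17, 19, 21 and 23. The log2 fold change was -0.70 ± 0.16 (SE, edgeR adjusted p = 0.837), -0.81 in experiment 1 and -0.56 in experiment 2. Tectb and Tecta were thus 2 of the 191 genes, 0.87% of those tested, whose 4 mut libraries all lay below the 4 het libraries, and 97 genes, 0.442%, had the opposite order.

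The promoters of these tectorin genes are shown because Tectb was the single gene called and Tecta encodes its partner. Each window runs from 250 bases before the start of transcription to 50 bases after it, from RefSeq on build GRCm38.p6, a patch level other than the GRCm38.p5 named for the counts. Tectb lies on chr19:55180476-55180775, plus strand, and Tecta on chr9:42401641-42401940, minus strand, the first of 2 windows listed for Tecta. Capitals mark matches, on either strand, to TATATAA and the shorter form TATAAA, 2 spellings of a promoter's core element, to CCGGAA, found in binding sites of ETS factors, and to TGGGAA, found in those of RBPJ, the DNA-binding factor of the Notch pathway. The letters were chosen after the Tectb sequence had been read.

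Tectb: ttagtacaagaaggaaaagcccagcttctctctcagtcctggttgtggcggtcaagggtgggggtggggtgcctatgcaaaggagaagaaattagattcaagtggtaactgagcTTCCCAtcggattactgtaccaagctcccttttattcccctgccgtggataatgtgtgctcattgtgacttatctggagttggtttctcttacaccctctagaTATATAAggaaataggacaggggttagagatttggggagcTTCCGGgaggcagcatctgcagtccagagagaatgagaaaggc

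Tecta: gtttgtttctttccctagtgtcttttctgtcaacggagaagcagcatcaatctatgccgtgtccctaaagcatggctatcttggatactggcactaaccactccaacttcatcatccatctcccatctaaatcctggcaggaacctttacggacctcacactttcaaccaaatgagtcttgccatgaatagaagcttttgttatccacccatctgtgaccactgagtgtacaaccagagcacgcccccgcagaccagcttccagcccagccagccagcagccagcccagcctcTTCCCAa

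In the Tectb window TATATAA was found at bases -33 to -27 counted from the start, CCGGAA on the opposite strand at bases 8 to 13 and TGGGAA on the opposite strand at bases -136 to -131. In the Tecta window TGGGAA was found on the opposite strand at bases 44 to 49, and there was no match to the other letters. No match overlapped another. Of 32851 windows of 300 bases in the RefSeq table, 3.24% held TATATAA, 13.6% TATAAA, 14.9% CCGGAA and 25.6% TGGGAA. These matches describe the letters and say nothing of binding.

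Apart from Tectb, no matrix gene of the inner ear's acellular membranes passed. Of 7 tested members of the list, Tectb was called, against 0.00455% of all genes tested, 5 had log2 fold changes below 0, and the median was -0.18, against -0.03 over all genes. Without het libraries 17 and 19, the 2 highest on the second component, 7 of 7 lay below 0 and the median was -0.17. Otog, which encodes otogelin of the tectorial membrane, stood at 11.2, 7.23, 6.47 and 7.39 CPM in mut libraries 18, 20, 22 and 24, against 12.6, 11.8, 9.92 and 7.90 CPM in het libraries 17, 19, 21 and 23. These ranges overlapped, with a log2 fold change of -0.40 ± 0.21 (SE). Its relative Otogl had -0.16 ± 0.17 (SE). The other 3 members, which belong to the otoliths or to the attachment of the membranes, ran from -0.18 to 0.06.

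**Figure D1:**
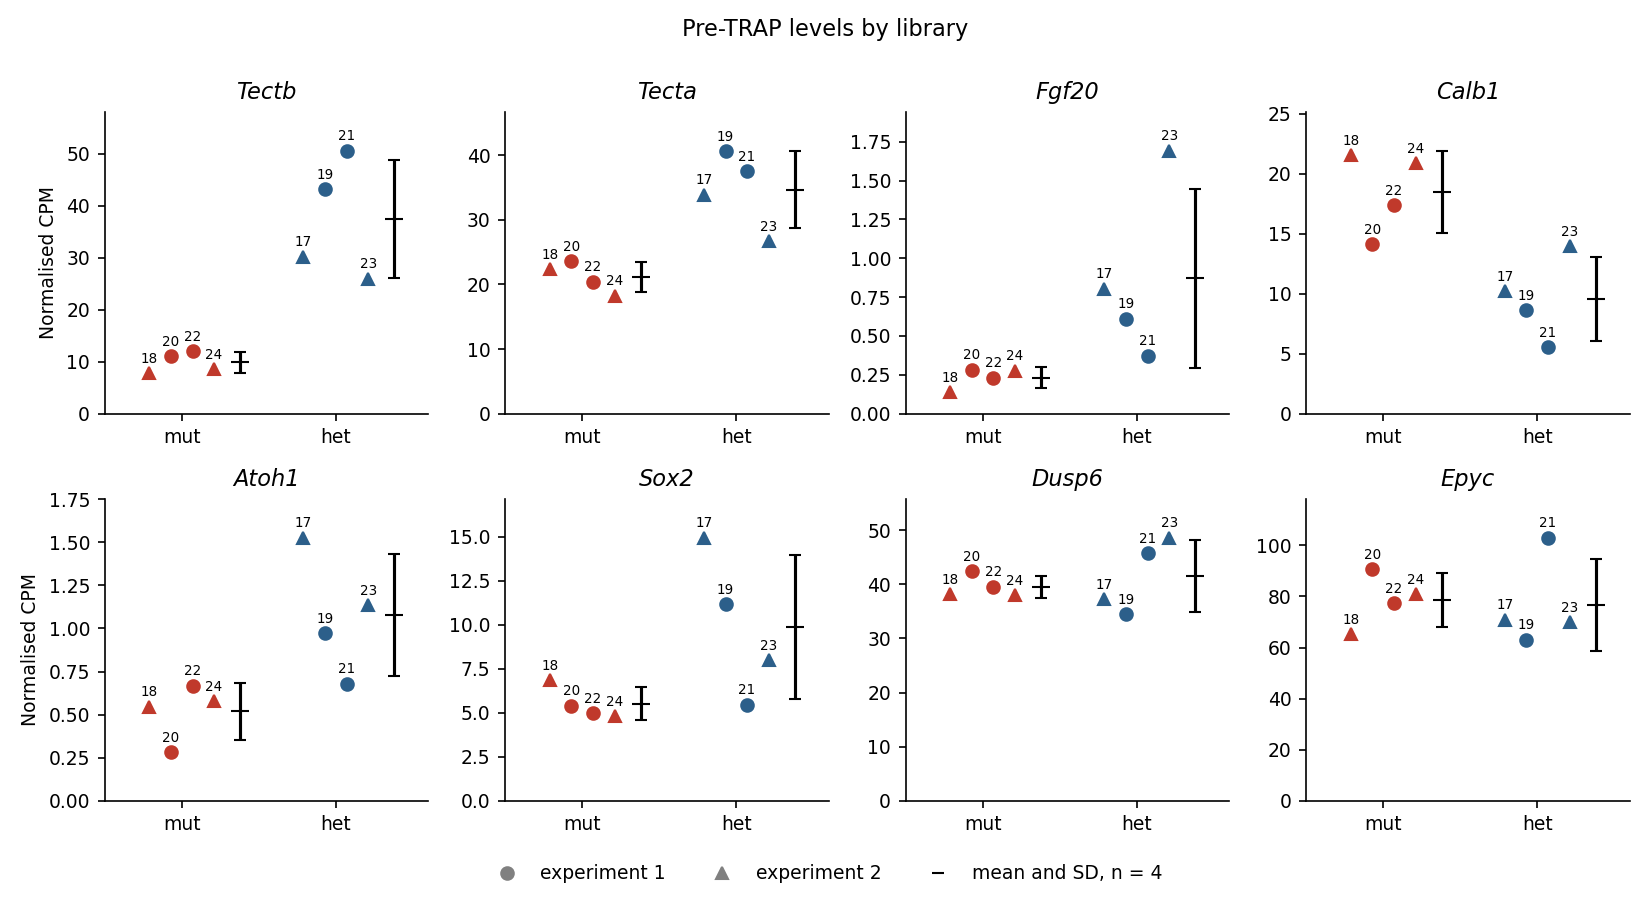
Normalised CPM in each pre-TRAP library for Tectb, Tecta, Fgf20, Calb1, Atoh1, Sox2, Dusp6 and Epyc, mut (red) left of het (blue), with library numbers, circles for experiment 1, triangles for experiment 2, and a bar for the mean and SD (n = 4). For Tectb the mut libraries sit between 7.80 and 12.0 CPM and the het libraries between 25.9 and 50.5 CPM, while for Dusp6 and Epyc the genotypes overlap.

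Calb1 (ENSMUSG00000028222), the calcium buffer calbindin, had the lowest p among the genes higher in mut. It stood at 21.5, 14.1, 17.4 and 20.9 CPM in mut libraries 18, 20, 22 and 24, against 10.2, 8.60, 5.54 and 13.9 CPM in het libraries 17, 19, 21 and 23. The lowest mut library was just above the highest het library, and within each experiment the gap was wider. The log2 fold change was 0.98 ± 0.19 (SE) with edgeR adjusted p = 0.837, and 1.00 with adjusted p = 0.0138 by DESeq2, the tool by which Calb1 was called. By edgeR 279 genes, 1.27% of those tested, were higher in mut at an unadjusted p under 0.05, by DESeq2 328 and by limma voom 937, and limma called none higher. Calb1 belongs to a list of 10 genes of the medial Kolliker organ, the epithelium on the inner side of the sensory region, none of which passed. Their log2 fold changes were above 0 for 5 and below 0 for 5, with a median of 0.01, and 0.05 without het libraries 17 and 19.

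Among genes higher in mut that averaged 2 CPM or more and had no clone or gene-model name, the next lowest p-values were those of Smpx, Usp37, Zfp648, Txnl4b, Dpysl2, Rorb, Pou4f1, Krt8-ps and Dpysl4, and none passed. Smpx, whose human counterpart is mutated in an X-linked hearing loss, stood at 2.73, 4.34, 4.12 and 4.02 CPM in mut libraries 18, 20, 22 and 24, against 1.28, 2.16, 3.28 and 1.89 CPM in het libraries 17, 19, 21 and 23, with a log2 fold change of 0.86 ± 0.24 (SE). Only het library 21 reached into the mut range. Rorb, a nuclear receptor, stood at 15.7, 23.9, 19.4 and 14.8 CPM in those mut libraries, against 8.71, 10.5, 10.6 and 15.2 CPM in those het libraries, with 0.69 ± 0.21 (SE), and het library 23 overlapped. Usp37, a deubiquitinase, and Zfp648, a zinc finger protein, had 0.67 ± 0.19 and 0.80 ± 0.23 (SE). Dpysl2 and Dpysl4, collapsin response mediator proteins of growing axons, had 0.53 ± 0.16 and 0.46 ± 0.15 (SE), and Pou4f1, a transcription factor of sensory neurons, had 0.49 ± 0.15 (SE). Txnl4b had 0.51 ± 0.15 and Krt8-ps, a keratin pseudogene whose reads may be shared with Krt8, had 0.64 ± 0.21 (SE). Of the 10 genes, Calb1 alone had groups that did not overlap, beside 0.442% of all genes. Without het libraries 17 and 19, 10 of 10 stayed above 0 and 9 were smaller, Smpx at 0.61, Dpysl2 at 0.37 and Krt8-ps at 0.40. The choice of these genes by low p over all 8 libraries favours a kept sign and a smaller value in part of those libraries.

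Under the same limits of level and symbol, the lowest p-values among genes lower in mut were, after Tectb and Tecta, those of Clic6, Spred2, Mapk12, Akr1c19, Samd10, Tac1, Rassf10 and Rfng, none of which passed. Clic6, of the chloride intracellular channel family, stood at 12.5, 9.88, 12.0 and 10.2 CPM in mut libraries 18, 20, 22 and 24, against 24.9, 22.0, 15.8 and 12.9 CPM in het libraries 17, 19, 21 and 23. The groups did not overlap, and het libraries 17 and 19 were the highest. Its fold change on the log2 scale was -0.77 ± 0.21 (SE), and -0.35 without those 2 libraries. Akr1c19, an aldo-keto reductase, had -1.24 ± 0.36 (SE), and -0.47 without them. Mapk12, a p38 kinase, had -0.82 and -0.48 in the same order, Samd10 -0.64 and -0.35, Rassf10 -0.76 and -0.39, and Rfng, a fringe glycosyltransferase that modifies Notch, -0.62 and -0.22. Tac1, the precursor of substance P, had the larger difference without those libraries, with -0.83 ± 0.24 (SE) over all 8 libraries and -1.17 without the 2, where it passed (edgeR adjusted p = 0.0203). Tac1 stood at 3.49, 4.42, 4.82 and 3.94 CPM in mut libraries 18, 20, 22 and 24, against 5.49, 4.97, 9.40 and 9.54 CPM in het libraries 17, 19, 21 and 23. Of these 10 lower genes, counting Tectb and Tecta, 7 had groups that did not overlap, among them Clic6, Mapk12, Samd10, Tac1 and Rassf10. The share over all genes was 0.87%, and the choice by low p favours such groups.

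**Figure D2:**
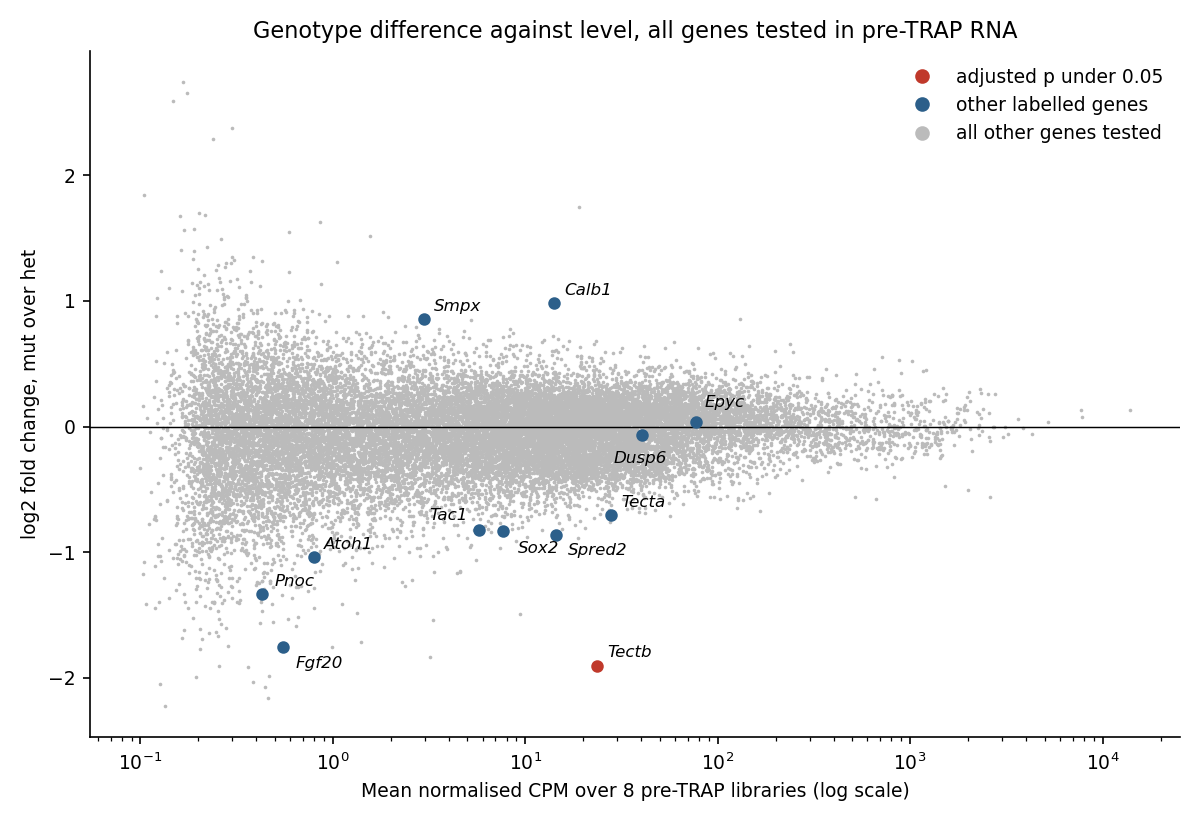
Log2 fold change of mut over het against the mean normalised CPM over the 8 pre-TRAP libraries (log axis) for the 21954 genes tested, with 12 genes named. Tectb (red), at -1.90, is the point that passed, the named genes in blue did not pass, and grey points are all other genes.

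The numbers of genes on each side moved with the libraries in the fit. At an unadjusted p under 0.05 stood 1048 genes, 4.77% of those tested, 279 higher and 769 lower (3.5%), and the median log2 fold change over all genes was -0.03. The counts were 119 higher and 182 lower without het library 17, 251 and 231 without het library 19, and 446 and 208 without both. They were 1312 and 2174 without het library 21, and 870 and 2106 without het library 23. Leaving out a mut library gave 322 and 442 (library 18), 117 and 289 (library 20), 207 and 517 (library 22), and 179 and 315 (library 24). More genes were lower than higher in 7 of the 8 fits that left out 1 library, the exception being the one without het library 19. Medians of gene groups are given below with and without het libraries 17 and 19. The fit without them leaves 1 het library in each experiment, numbers 21 and 23. Of these, 21 is the one that differed most from the other het libraries by chi-square. With libraries 17 and 19 left out, 15 of the 20 list medians that lay below 0 lay above it, and 3 that lay above 0 lay below it.

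No FGF-ERK response gene was called. Of 19 tested members, 15 had log2 fold changes below 0, against 54.0% of all genes tested, and their median was -0.33. It was -0.20 without het libraries 17 and 19, with 14 below 0, and -0.36 in experiment 1 and -0.22 in experiment 2. In TRAP libraries the median was -0.46. Spry4, a Sprouty feedback inhibitor of receptor tyrosine kinase signalling, was the 1 member of 19 whose groups did not overlap, all mut libraries being lower, as for 0.87% of all genes. Spry4 stood at 13.0, 16.5, 16.3 and 16.6 CPM in mut libraries 18, 20, 22 and 24, against 19.8, 20.8, 21.8 and 17.9 CPM in het libraries 17, 19, 21 and 23. Its log2 fold change was -0.36 ± 0.15 (SE), and -0.32 without het libraries 17 and 19.

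The Spred inhibitors of the same pathway moved with those 2 libraries. Spred2 stood at 13.1, 7.37, 8.62 and 12.2 CPM in mut libraries 18, 20, 22 and 24, against 27.6, 20.7, 11.5 and 13.8 CPM in het libraries 17, 19, 21 and 23. Spred2 had a log2 fold change of -0.86 ± 0.24 (SE), and -0.31 without libraries 17 and 19. Spred3 had -0.86 ± 0.29 (SE) and -0.24 in the same order. Spry1, a further Sprouty inhibitor, had -0.53 ± 0.18 (SE) and -0.35, Dusp4, a MAP kinase phosphatase, -0.72 ± 0.29 (SE) and -0.46, and Ccnd1, cyclin D1, -0.49 ± 0.18 (SE) and -0.29. Spry2, of the same family as Spry1 and Spry4, had the opposite sign, at 42.6, 48.2, 60.5 and 40.8 CPM in mut libraries 18, 20, 22 and 24, against 34.0, 37.9, 19.1 and 54.8 CPM in het libraries 17, 19, 21 and 23. Its log2 fold change was 0.42 ± 0.26 (SE), 0.95 in experiment 1 and -0.07 in experiment 2, and 0.47 without libraries 17 and 19. Dusp5, a further MAP kinase phosphatase, had -0.39 ± 0.40 (SE), and 0.54 without them.

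The ETS transcription factors and Dusp6, direct readouts of FGF signalling in many tissues, did not pass in whole tissue, with log2 fold changes between -0.33 and 0.03. Dusp6, the phosphatase that acts on ERK, stood at 38.1, 42.4, 39.6 and 38.0 CPM in mut libraries 18, 20, 22 and 24, against 37.3, 34.5, 45.8 and 48.6 CPM in het libraries 17, 19, 21 and 23. The mut values lay inside the het range, with a log2 fold change of -0.07 ± 0.15 (SE). Etv5 stood at 83.5, 69.7, 62.4 and 75.9 CPM in those mut libraries, against 69.6, 74.7, 64.9 and 76.0 CPM in those het libraries, and the groups overlapped. Its log2 fold change was 0.03 ± 0.14 (SE), that of Etv1 -0.15 ± 0.16 and that of Etv4 -0.33 ± 0.18 (SE). In TRAP libraries Dusp6, Etv5, Etv1 and Etv4 had -0.79, -0.56, -0.73 and -0.62, and only Dusp6 passed there.

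**Figure D3:**
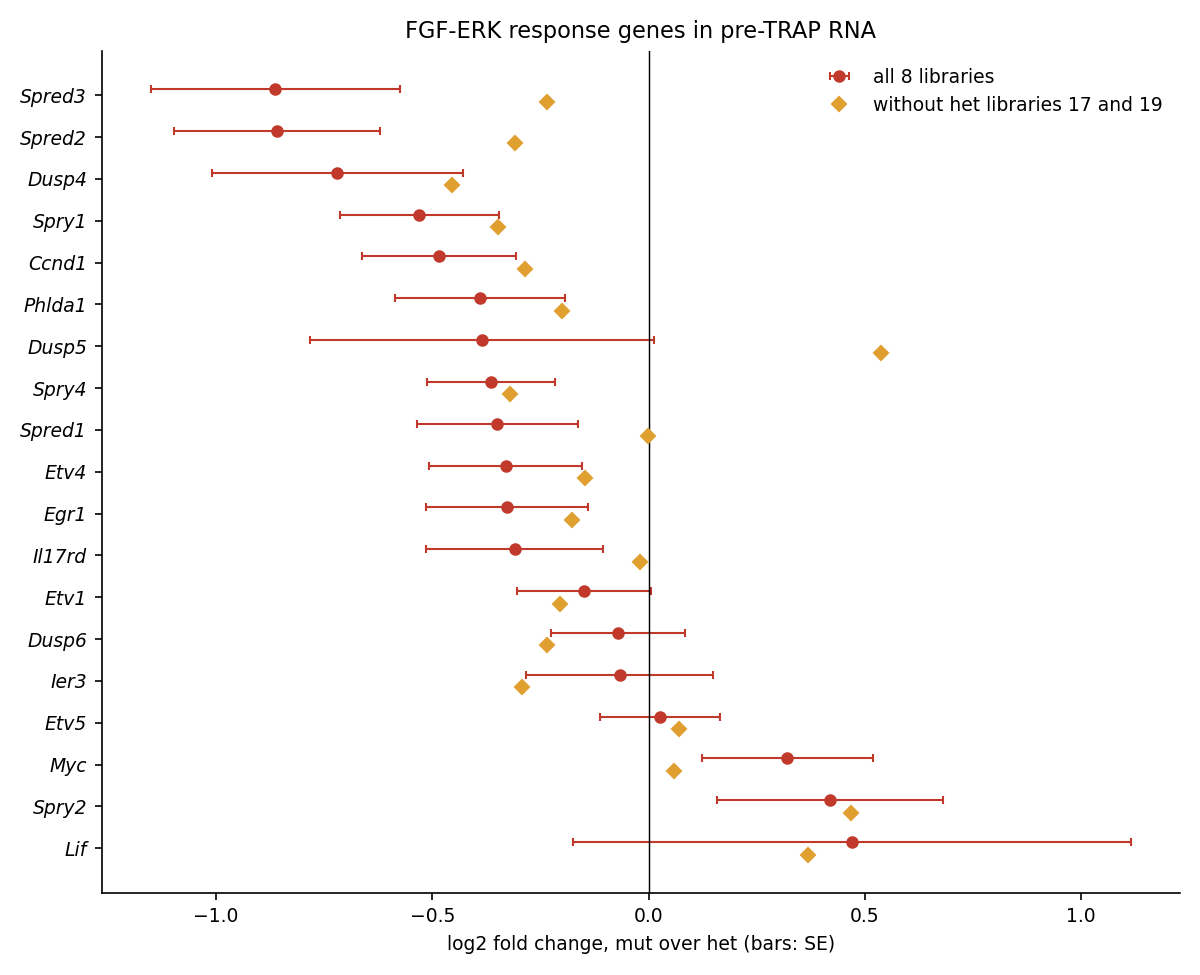
Log2 fold change of mut over het in pre-TRAP RNA for the 19 tested FGF-ERK response genes, red circles with SE bars for all 8 libraries and orange diamonds for the fit without het libraries 17 and 19. With all libraries 15 of 19 lie below 0 and without the 2 het libraries 14 do, and Dusp5, Spred3 and Spred2 move furthest between the fits.

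Among secreted FGF ligands, 10 of 18 could be tested, none was called, and the median was -0.09, or 0.13 without het libraries 17 and 19. Fgf5 stood at 1.42, 0.767, 0.609 and 0.496 CPM in mut libraries 18, 20, 22 and 24, against 0.250, 0.305, 0.585 and 0.582 CPM in het libraries 17, 19, 21 and 23, with a log2 fold change of 0.91 ± 0.41 (SE) and overlapping groups. Mut library 18 held the most, and mut library 24 lay below het libraries 21 and 23. The 5 tested receptors had a median of -0.15, and 0.07 without the 2 het libraries. Fgfr1, the receptor for FGF20 in the cochlea, stood at 43.7, 48.6, 45.5 and 38.9 CPM in mut libraries 18, 20, 22 and 24, against 61.6, 65.9, 48.8 and 40.3 CPM in het libraries 17, 19, 21 and 23. Its log2 fold change was -0.29 ± 0.17 (SE), and 0.01 without libraries 17 and 19. Fgfr2 and Fgfr3, receptors of the same family, had -0.15 and -0.11, and 0.11 and 0.14 without them. Fgfrl1, a receptor with no kinase domain, had -0.57 ± 0.23 (SE), and -0.01 without them.

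None of 18 prosensory domain genes passed. Their median was -0.30, and -0.04 without het libraries 17 and 19. Sox2, which the prosensory domain requires, stood at 6.85, 5.39, 4.96 and 4.79 CPM in mut libraries 18, 20, 22 and 24, against 14.9, 11.2, 5.45 and 7.98 CPM in het libraries 17, 19, 21 and 23. Library 18 was the one mut library that reached into the het range. Over all 8 libraries the log2 fold change was -0.83 ± 0.26 (SE), and -0.25 without libraries 17 and 19. Lfng, a fringe enzyme of the same region, had -1.06 ± 0.37 (SE) and -0.54 without them. Hmga2, an early growth regulator named after its values were seen, had groups that did not overlap, with -0.38 ± 0.16 (SE) and -0.21 without them. Of the 18 genes, 2 had all mut libraries lower, beside 0.87% of all genes. But 1 of the 2 was Fgf20, the targeted gene, whose loss defines the groups.

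Hair cell genes pointed both ways, with no member called among 18 tested, 7 above 0, 11 below 0 and a median of -0.18. That median was -0.02 without het libraries 17 and 19, 0.09 in experiment 1 and -0.12 in experiment 2. Atoh1, without which no hair cells form, stood at 0.546, 0.283, 0.667 and 0.579 CPM in mut libraries 18, 20, 22 and 24, against 1.53, 0.971, 0.678 and 1.14 CPM in het libraries 17, 19, 21 and 23. The groups just failed to touch, at mut library 22 and het library 21. Atoh1 was the 1 gene of the 18 whose mut libraries were all lower, beside 0.87% of all genes. On the log2 scale the fold change was -1.04 ± 0.32 (SE), -0.80 in experiment 1, -1.22 in experiment 2, and -0.78 without libraries 17 and 19. Pou4f3, which acts after Atoh1 and keeps hair cells alive, had 0.38 ± 0.21 (SE), and Myo7a, a hair bundle myosin, -0.39 ± 0.19 (SE).

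In the Notch pathway, 14 of 19 tested genes lay below 0 with a median of -0.24, and 0.01 without het libraries 17 and 19. Notch4, a receptor of blood vessels, had -0.92 ± 0.36 (SE) and -0.22 without them. The 17 Wnt pathway genes had a median of -0.28, and 0.07 without them. Wnt7a, a Wnt ligand, and the transcription factors Tcf7 and Lef1 had all mut libraries below all het libraries, with log2 fold changes of -0.73 ± 0.26, -0.51 ± 0.19 and -0.28 ± 0.13 (SE). Wif1, a secreted inhibitor of Wnt ligands, had all mut libraries above, at 3.30, 4.79, 3.10 and 4.68 CPM in mut libraries 18, 20, 22 and 24, against 2.83, 2.47, 2.88 and 2.19 CPM in het libraries 17, 19, 21 and 23. Wif1 had a log2 fold change of 0.62 ± 0.22 (SE), and 0.68 without libraries 17 and 19. These are 4 of 17 genes with groups that do not overlap, 3 lower and 1 higher, beside 0.87% and 0.442% of all genes. None passed.

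The remaining signalling lists had no called member. The medians of 12 Hedgehog and 18 BMP pathway genes were -0.26 and -0.11, and 0.16 and 0.10 without het libraries 17 and 19. The 6 CDK inhibitors had -0.23, and 0.00 without them, with Cdkn2c at -0.77 ± 0.29 (SE) and -0.19. The 27 cell cycle genes had 0.08 and -0.04, and the 14 immediate early and heat shock genes -0.09 and 0.10.

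Marker lists of the tissue's cell types described its makeup, and none had a called member. The 16 cartilage genes had a median of -0.24, and 0.10 without het libraries 17 and 19. They summed to 3562 to 5390 CPM in mut and 3258 to 5930 CPM in het. The 16 periotic mesenchyme genes had -0.13, and 0.10 without those libraries. Its defining markers Tbx18, Pou3f4 and Prrx1 had -0.51 ± 0.19, -0.40 ± 0.16 and -0.21 ± 0.17 (SE), and -0.17, -0.20 and 0.10 without them. The 17 neuron genes had -0.05, and 0.25 without the 2 libraries, with Tubb3, a neuronal tubulin, at 0.33 ± 0.15 (SE). Schwann cell genes had 0.01, and 0.05 without them, with Sox10, which otic epithelium also makes, at -0.65 ± 0.24 (SE) and -0.08 without the 2 libraries. The 17 otic epithelium genes had -0.05, and 0.03 without the 2 libraries, with Esrp1, an epithelial splicing factor, below in every mut library at -0.33 ± 0.15 (SE). Esrp1 was the 1 gene of the 17 with that order, beside 0.87% of all genes. The 11 roof and non-sensory genes had -0.10, and 0.02 without the 2 libraries, with Gata2 at -0.37 ± 0.17 and Lmx1a at 0.29 ± 0.15 (SE).

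Of the cell type lists, the 11 tested skeletal muscle genes had the largest median, 0.48, and 0.69 without het libraries 17 and 19. They summed to 96.1, 87.1, 82.2 and 89.2 CPM in mut libraries 18, 20, 22 and 24, against 55.0, 63.6, 105 and 80.7 CPM in het libraries 17, 19, 21 and 23, so the groups overlapped. Of the 11 genes, 9 lay above 0 and 2 below, 0 of them at an unadjusted p under 0.05 by edgeR. Some were scarce, with Myod1 at 0.0936 to 0.682 CPM and Myh3 at 0.222 to 1.37 CPM. Acta1, at 37.7 to 85.4 CPM, had 0.22, and -0.15 without libraries 17 and 19. Epidermis genes had a median of 0.45 over 5 genes, and 0.06 without libraries 17 and 19. Erythroid, endothelial, macrophage and melanocyte lists had medians of 0.06, -0.01, -0.004 and 0.07, and of -0.19, 0.07, -0.18 and -0.16 without those libraries. The melanocyte sum followed the experiment. In experiment 1 it was 48.9 and 59.5 CPM in the mut libraries and 46.2 and 55.8 CPM in the het libraries. In experiment 2 it was 311 and 487 CPM in the mut libraries and 378 and 387 CPM in the het libraries. The range of the sum was close to that of Dct alone, which ran from 9.71 to 458 CPM over the 8 libraries. Tyr ran from 0.441 to 1.22 CPM and Pmel from 3.08 to 8.07 CPM. The list's mean log2 CPM ran from 1.71 to 2.07 in experiment 1 and from 2.24 to 2.30 in experiment 2. Of these makeup levels, only that of neurons was fitted as a covariate. In that edgeR fit Tectb was the 1 gene called, at -1.90. There 1332 genes were higher and 2171 lower at an unadjusted p under 0.05. The part of the other makeup differences in the values above was not tested.

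**Figure D4:**
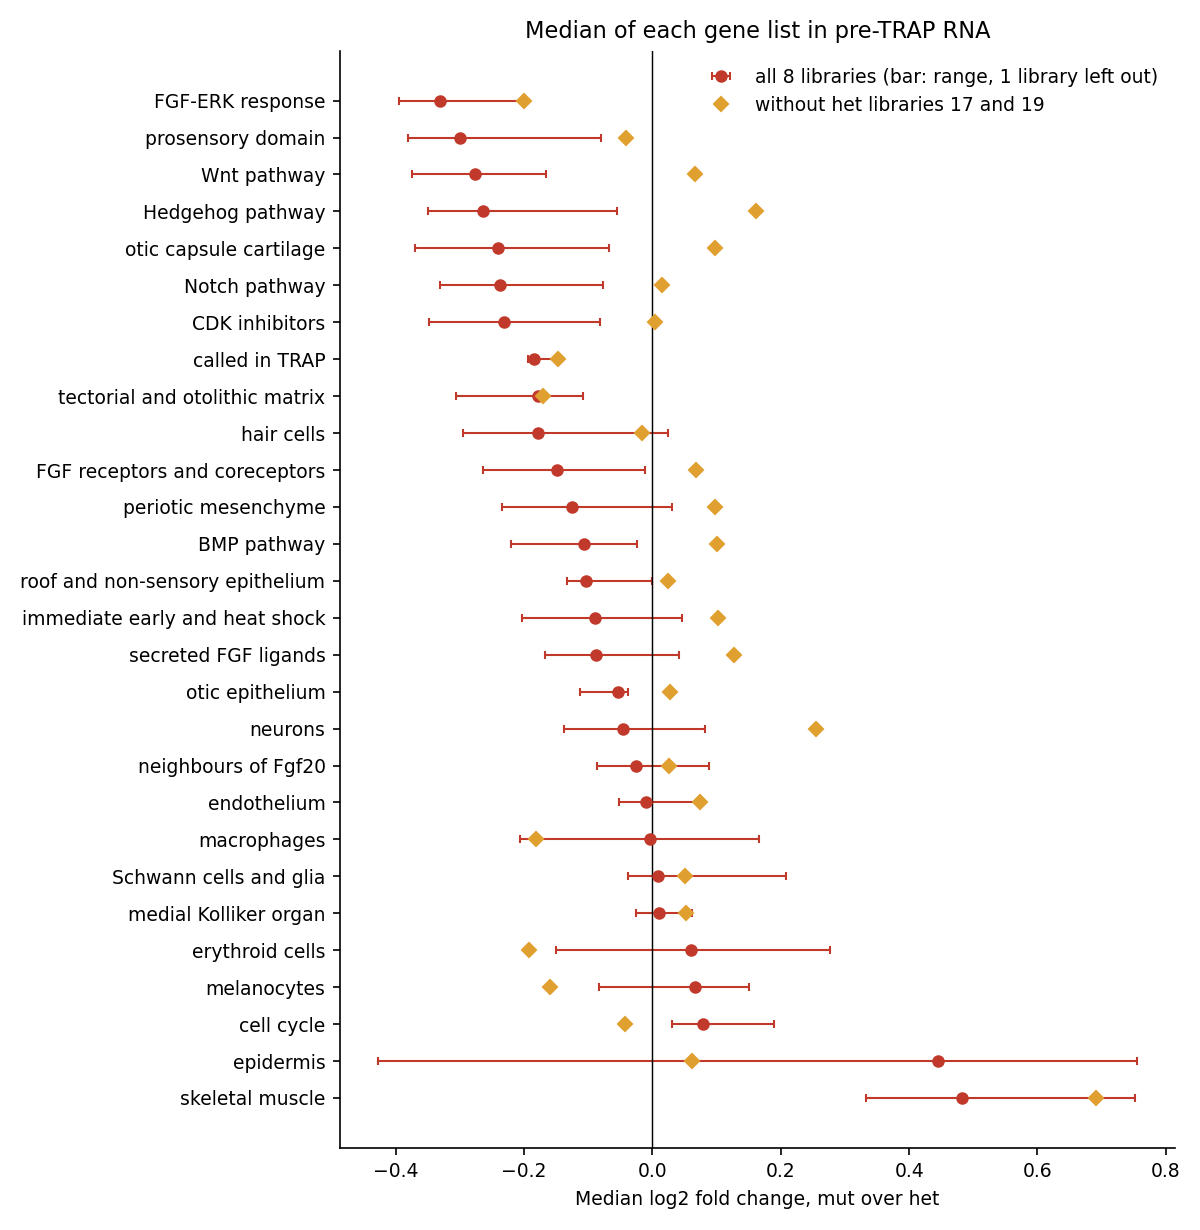
Median log2 fold change of mut over het for each gene list in pre-TRAP RNA except the sex-linked genes, which are not shown. Red circles are for all 8 libraries with bars for the range when 1 library is left out, and orange diamonds are without het libraries 17 and 19. Most red points lie left of 0 and most diamonds right of it, with the FGF-ERK response list at -0.33 and -0.20 and the tectorial and otolithic matrix list at -0.18 and -0.17.

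The 16 genes called in TRAP libraries, of 21577 tested there (0.0742%), 4 of them higher (0.0185%) and 12 lower (0.0556%), were chosen from those other libraries, so their pre-TRAP values are a separate measurement unless the pools were shared. In pre-TRAP RNA 14 of the 16 had the same sign as in TRAP and 2 the opposite one, and 1 of the 16, Tectb, was called. The size was smaller in pre-TRAP for 15 of the 16, Calb1 being the exception. Taken in the TRAP direction, the median was 0.35 in pre-TRAP and 1.03 in TRAP. Since they passed in TRAP, their TRAP values are selected to be large.

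For some of them the values were close in both kinds of RNA. Tectb had -1.90 ± 0.15 in pre-TRAP and -1.91 ± 0.15 in TRAP, Calb1 0.98 ± 0.19 and 0.89 ± 0.15, Tac1 -0.83 ± 0.24 and -1.02 ± 0.18, and Smpx 0.86 ± 0.24 and 1.08 ± 0.15 (SE). Pnoc, the precursor of nociceptin, had -1.34 ± 0.44 in pre-TRAP and -1.41 ± 0.26 in TRAP (SE), from 0.327, 0.121, 0.261 and 0.276 CPM in mut libraries 18, 20, 22 and 24, against 0.638, 0.4996, 0.983 and 0.333 CPM in het libraries 17, 19, 21 and 23. The Pnoc groups did not overlap in CPM, but its counts were 6 to 12 in mut and 12 to 42 in het. Mut library 18 and het library 23 both held 12 counts, so there the order rests on the scaling. The log2 fold change of Pnoc was -1.98 in experiment 1 and -0.66 in experiment 2. The groups of Urah, an enzyme of urate breakdown, did not overlap either. Of the 16 genes, 4 had all mut libraries lower and 1 all mut libraries higher, beside 0.87% and 0.442% of all genes. Urah stood at 0.518, 0.545, 0.580 and 0.524 CPM in those mut libraries, against 0.888, 0.999, 1.26 and 0.887 CPM in those het libraries, with -0.89 ± 0.26 in pre-TRAP and -1.87 ± 0.18 in TRAP (SE). Hey2, a repressor of the prosensory region, had -0.60 ± 0.22 and -1.13 ± 0.14 (SE), and its pre-TRAP value was -0.16 without het libraries 17 and 19.

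For others the pre-TRAP value was near 0. Epyc, the proteoglycan epiphycan, stood at 65.1, 90.6, 77.4 and 80.9 CPM in mut libraries 18, 20, 22 and 24, against 70.9, 63.0, 103 and 69.9 CPM in het libraries 17, 19, 21 and 23. Its log2 fold change was 0.04 ± 0.17 in pre-TRAP and 1.21 ± 0.19 in TRAP (SE), and the mut libraries lay within the het range. Gna14, a G protein alpha subunit, had 0.00 ± 0.18 and -1.04 ± 0.20, Pcp4l1 0.02 ± 0.19 and -0.96 ± 0.18, and Cpxm2, a carboxypeptidase-like protein, -0.06 ± 0.17 and -0.62 ± 0.11 (SE). Tril, Shc4 and BC064078 had -0.34, -0.30 and -0.36 in pre-TRAP and -1.08, -0.60 and -0.79 in TRAP, and Fgf13, an FGF homolog that is not secreted, 0.24 and 0.59.

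The difference between the 2 kinds of RNA was tested over all 24 libraries. No gene of 24242 passed by edgeR or by DESeq2, with 302 and 322 at an unadjusted p under 0.05, 1.25% of the genes by edgeR. Of the 16 genes, 7 were among those 302: Epyc, at -1.19 ± 0.33 for pre-TRAP minus TRAP, Gna14 at 1.02 ± 0.31, Urah at 0.97 ± 0.30, Pcp4l1 at 0.95 ± 0.29, Tril at 0.72 ± 0.24, Dusp6 at 0.70 ± 0.22 and Cpxm2 at 0.55 ± 0.19 (SE). None of them passed over all genes, and the choice of the genes by their TRAP values favours such differences. For Tectb the difference was -0.02 ± 0.24 (SE).

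**Figure D5:**
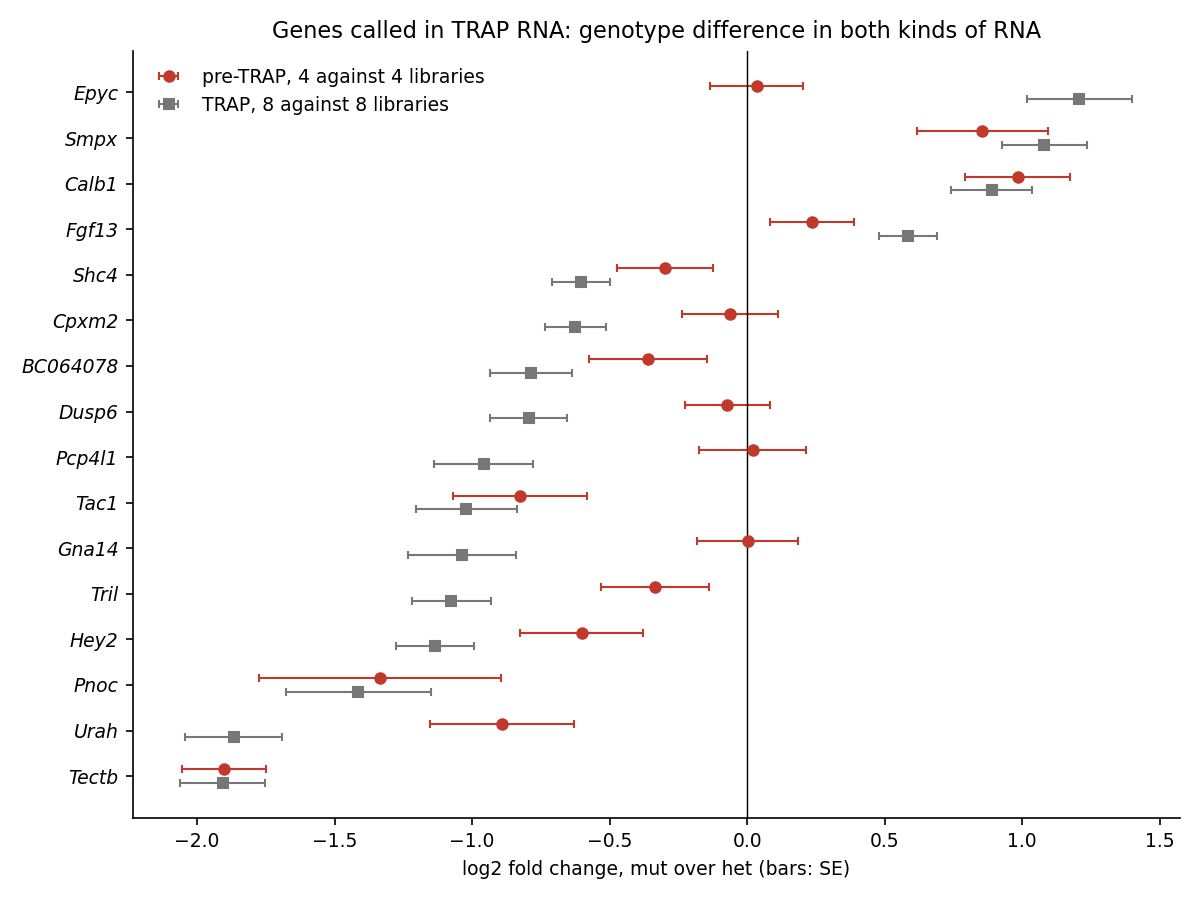
Log2 fold change of mut over het with SE bars for the 16 genes called in TRAP RNA, red circles for pre-TRAP (4 against 4 libraries) and grey squares for TRAP (8 against 8 libraries). Tectb, Calb1, Tac1, Smpx and Pnoc lie close together in both, while Epyc, Gna14, Pcp4l1, Dusp6 and Cpxm2 lie near 0 in pre-TRAP.

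Between the experiments, the genotype difference did not pass for any of 21954 genes, by edgeR or by DESeq2, with 178 (0.811%) and 94 at an unadjusted p under 0.05. Without het library 19, which leaves 1 het library in experiment 1, 28 genes passed on the lower side. That fit assumes that the lone library, number 21, varied like the others, yet in library 21 19 genes stood at less than 1/8 of the lowest of the other 7 libraries, and in each of those 7 none did. The part of those genes in the 28 calls was not tested.

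Genes beside Fgf20 on the chromosome were listed because an engineered allele carries its flanking DNA with it. Of the 20 nearest protein-coding genes, 10 on each side, 15 could be tested, none was called, and the median was -0.02, and 0.03 without het libraries 17 and 19. AI429214 had the lowest p of them, at 4.91, 7.05, 6.99 and 5.13 CPM in mut libraries 18, 20, 22 and 24, against 2.28, 4.19, 5.17 and 2.94 CPM in het libraries 17, 19, 21 and 23. The groups overlapped across the experiments, although within each experiment both mut libraries lay above both het libraries. AI429214 had a log2 fold change of 0.76 ± 0.19 (SE), and 0.62 without libraries 17 and 19. Dlc1, a GTPase-activating protein, had -0.54 ± 0.20 (SE), and -0.17 without them.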

How the data were processed

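The deposited table holds raw counts: 53946 Ensembl genes, 1 column a library, whole numbers that the authors had not normalized. Of these genes, 14135 had no count in the 8 pre-TRAP libraries. Per the labels' protocols, RNA came from a Picopure kit, polyA RNA was used and libraries were SMARTer (Clontech). STAR, DESeq2 and build GRCm38.p5 are named, per the submitters' processing notes. Tool versions, the annotation, the counter and the strand setting were not given in the sources used here, so overlapping genes and near-identical copies are uncertain. Identifiers gave a symbol for 53274 genes.

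The model was edgeR 4.0.16 under R 4.3.3: TMM scaling, filterByExpr at a minimum count of 10, terms for genotype and experiment, quasi-likelihood F test. Called means a Benjamini-Hochberg adjusted p under 0.05 over all genes tested. Standard errors are the fold change divided by the root of F. Interactions of genotype with method (all 24 libraries) and with experiment were fitted the same way. Alternatives were DESeq2 1.42.0, limma 3.58.1 (voom with quality weights), median-of-ratios scaling, no filter and a stricter one, no experiment term, each experiment alone, all libraries in 1 fit, Y-linked and neuron levels as covariates, and each library left out. The fit without het libraries 17 and 19 was chosen after seeing the data. The edgeR fits of genotype and of both interactions were run on simulated counts with known changes. The share recovered is not given here, so that run does not say how small a change could be missed.

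Members, gene lists and alternatives were chosen with earlier results of these data known. Named genes are Fgf20, called genes, genes of lowest p with at least 2 CPM and a named symbol until 10 stood in each direction, genes called in TRAP, members of the FGF and matrix lists, and up to 4 members of each other list by lowest p. Hmga2 and Lef1 were named after their values were seen, as were the set-apart genes of library 21 and the gene models called without het libraries 17 and 19.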

Additional observations from a re-analysis of the deposited data

Results flagged for a closer look

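Of 148 groups of 4 libraries, 4 had a library set far from the rest by Dixon's criterion at 95%, which about 1 in 20 groups meets by chance. Tril stood at 5.29 CPM in mut library 24, against 7.39 CPM in the nearest mut library. Spry4 stood at 13.0 CPM in mut library 18, against 16.3 CPM in the nearest. Myo7a stood at 7.27 CPM in het library 17, against 5.83 CPM in the nearest het library. The mitochondrial share of counts was 0.897% in mut library 22, against 0.679% in the nearest mut library.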

How the results depend on the processing

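No paired analysis was possible because each library has a number of its own and no label ties a mut library to a het library. Genes called higher, 0 over all, were 1 by DESeq2 (Calb1, log2 fold change 1.00) and 3 without het libraries 17 and 19 (the unnamed gene models Gm8199, Gm5948 and Gm8447), and genes called lower, 1 over all, were 0 with no experiment covariate and in experiment 2 alone, and 2 without those libraries, Tectb and Tac1. Tectb was -1.93 (adjusted p = 0.203) with no experiment covariate and -1.76 (adjusted p = 0.542) in experiment 2 alone, and -1.97 to -1.83 with 1 library left out. The method interaction called 0 genes, and 1 higher with no filter on low counts; the experiment interaction called 0 to 28 lower genes with 1 library left out.

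Some genes changed sign, most of them near 0. Without het libraries 17 and 19 the log2 fold change was 0.045 for Cpxm2, -0.10 for Epyc, -0.14 for Pcp4l1, -0.15 for Gna14, 0.013 for Fgfr1, 0.11 for Fgfr2, 0.14 for Fgfr3, 0.096 for Prrx1 and 0.54 for Dusp5. In experiment 1 alone it was 0.053 for Dusp6, -0.031 for Gna14 and -0.060 for Etv5, and in experiment 2 alone 0.18 for Cpxm2, -0.025 for Pcp4l1 and -0.074 for Spry2. With the Y-linked level as covariate it was -0.10 for Pcp4l1 and -0.020 for Etv5, and with no experiment covariate -0.0013 for Gna14. With 1 library left out the values ran from -0.14 to 0.030 for Dusp6, -0.13 to 0.071 for Cpxm2, -0.064 to 0.20 for Epyc, -0.12 to 0.23 for Pcp4l1, -0.10 to 0.18 for Gna14, -0.020 to 0.11 for Etv5 -0.21 to 0.040 for Fgfr3 and -0.69 to 0.014 for Dusp5. The method interaction of Tectb was 0.011 under median-of-ratios scaling and 0.010 by DESeq2. With 1 library left out it ran from -0.12 to 0.11 for Tectb, -0.079 to 0.22 for Calb1, -0.0093 to 0.42 for Tac1 and -0.13 to 0.39 for Pnoc. Of the remaining values, 1375 for single genes in pre-TRAP, 210 in the interaction and 514 list medians stayed on their side or within the spread, and 66 list medians moved further. The causes were not tested. With 4 libraries per genotype and under 10 counts of Fgf20 in some mut libraries, changes of scarce genes were at the limit of this depth.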

Other observations

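Het library 21 held far fewer reads of a set of genes than the other pre-TRAP libraries, a set chosen after its values were seen. Of the genes with at least 1 CPM in the other 7 libraries, 19 stood in library 21 at less than 1/8 of the lowest of them, and none did so in any other library. Of these, 12 were histone H2A genes of the Hist1h2a family, whose near-identical copies can share reads. Hist1h2ai stood at 0.0468 CPM in library 21, against 7.21 to 122 CPM in the others, and Hist1h2ad at 0.0935 CPM, against 9.61 to 164 CPM. Mrps34, a mitochondrial ribosomal protein, stood at 0.257 CPM, against 4.71 to 15.1 CPM. Above that limit, Cox5a, a subunit of cytochrome c oxidase, stood at 6.29 CPM, against 39.5 to 142 CPM, and Ndufab1, of respiratory complex I, at 19.7 CPM, against 68.3 to 149.5 CPM. None of these genes is named in the comparisons above.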
